A study of Mus musculus with 2 samples.

Results

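The 10 genes described here belong to the tumour necrosis factor (TNF) system: the ligands Tnf, Ltb, Tnfsf9, Tnfsf10, Tnfsf13b and Tnfsf14, the receptors Tnfrsf1a, Tnfrsf1b and Fas, and the signalling inhibitor Tnfaip3. They were found on the arrays by the RefSeq accession of each probe, which gave 11 probes and 30 spots per array for these genes, of 55681 probes and 20145 named genes in all. Marrow cells of C57BL/6 mice were cultured for 4 days either with GM-CSF at 40 ng/ml and IL-6 at 40 ng/ml (GM-CSF + IL-6), or with GM-CSF at 40 ng/ml alone (GM-CSF ONLY), and the medium of each culture held 5% serum. The labels call the resulting cells myeloid-derived suppressor cells (MDSCs) and name no sorting step. Each condition was 1 culture on 1 single-colour Agilent array, so differences could not be set against replicates and no test or p-value is given.

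TNF family ligands are mostly membrane proteins that act as trimers, some of which are shed as soluble cytokines, and they cluster the receptors of the same family on the receiving cell. Receptors with a death domain, such as the products of Tnfrsf1a and Fas, can assemble caspase-activating complexes, while most family members activate NF-kB through TRAF adaptors and ubiquitin ligases. A20, the product of Tnfaip3, edits ubiquitin on these complexes and switches the signal off. In myeloid suppressor cells, signalling through the product of Tnfrsf1b is known to support survival and suppressive function in mice.

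Promoter sequences are shown for the members whose signals differed most and for neighbours or regulators of Tnf set against them, since these are the stretches through which NF-kB, STAT and interferon-activated factors may act. Each is the 250 bases before the RefSeq start of the gene on assembly GRCm38.p6, read 5′ to 3′ on the gene's strand. Capitals mark matches to the NF-kB consensus, to the STAT-binding GAS element TTCNNNGAA, to the core of the interferon-stimulated response element (ISRE), which is a pair of GAAA letters with 2 bases between them, or to the AP-1 site TGANTCA, each searched on both strands.
Tnf, chr17:35202008-35202257, minus strand: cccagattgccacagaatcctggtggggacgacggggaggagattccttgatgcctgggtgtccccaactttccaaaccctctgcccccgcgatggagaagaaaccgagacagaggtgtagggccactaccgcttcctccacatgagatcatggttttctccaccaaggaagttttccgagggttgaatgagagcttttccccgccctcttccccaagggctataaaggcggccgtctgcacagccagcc
Ltb, chr17:35194257-35194506, plus strand: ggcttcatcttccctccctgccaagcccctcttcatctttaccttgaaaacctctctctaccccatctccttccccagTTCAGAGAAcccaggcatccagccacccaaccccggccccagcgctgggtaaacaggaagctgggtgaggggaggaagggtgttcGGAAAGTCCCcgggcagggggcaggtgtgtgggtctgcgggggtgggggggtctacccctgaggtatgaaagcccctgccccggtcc
Tnfsf13b, chr8:10006383-10006632, plus strand: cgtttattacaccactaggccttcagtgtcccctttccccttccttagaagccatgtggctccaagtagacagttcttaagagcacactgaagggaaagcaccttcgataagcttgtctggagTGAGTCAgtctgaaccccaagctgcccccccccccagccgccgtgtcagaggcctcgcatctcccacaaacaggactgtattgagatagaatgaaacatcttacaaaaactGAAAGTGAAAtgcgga
Tnfrsf1b, chr4:145246871-145247120, minus strand: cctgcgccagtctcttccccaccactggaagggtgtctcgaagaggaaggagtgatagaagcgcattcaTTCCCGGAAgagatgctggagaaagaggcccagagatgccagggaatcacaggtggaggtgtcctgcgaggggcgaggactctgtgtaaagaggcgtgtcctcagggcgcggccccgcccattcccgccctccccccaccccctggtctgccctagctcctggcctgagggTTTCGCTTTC
Tnfaip3, chr10:19015411-19015660, minus strand: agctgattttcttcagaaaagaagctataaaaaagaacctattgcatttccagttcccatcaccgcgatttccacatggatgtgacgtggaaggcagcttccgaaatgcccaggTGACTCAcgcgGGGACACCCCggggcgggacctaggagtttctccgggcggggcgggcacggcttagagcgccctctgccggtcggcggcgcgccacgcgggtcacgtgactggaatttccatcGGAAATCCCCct

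The RefSeq promoter table held 11 start sites for 9 of the 10 members, and Tnfsf9 had none in it. The 13 matches found in these 11 windows did not overlap one another. The interferon response core was present in the windows of 2 members, Tnfsf13b and Tnfrsf1b, and in 2.98% of the 32851 windows of the whole table. For Tnfsf13b this was 1 of its 2 starts. They are also the members with the lowest log2 ratios below, which was noticed after the values were known and is given with no test. The matches were GAAAGTGAAA, which starts 16 bases before the Tnfsf13b start, and TTTCGCTTTC on the opposite strand, 10 bases before the Tnfrsf1b start. The NF-kB consensus was matched in 2 members, with 2 matches for Tnfaip3 and 1 for Ltb, and in 7.25% of all windows. A GAS element was present for Fas, Ltb, Tnfrsf1a and Tnfrsf1b and in 7.02% of all windows, and the AP-1 site for Fas, Tnfaip3, Tnfsf13b and Tnfsf14 and in 6.75%. The Tnf window held none of the 4 motifs. A match describes letters only and is not a measured binding site.

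Signals are background-subtracted spot intensities scaled so that both arrays have the same 75th percentile, and the log2 ratio is GM-CSF + IL-6 minus GM-CSF ONLY. The error beside a log2 ratio is technical: the SD between repeated spots, taken over probes of like brightness (266 probes in 6 bins), scaled down by the root of the spot number. It does not cover labelling, RNA or culture. All 10 members were well above background on both arrays, as were 13843 of the named genes, and no spot was saturated. The markers fixed for myeloid cells, among them Itgam, Csf1r and S100a8, were measured for 10 of 10 genes. Their summed signal was 1243040 with IL-6 and 1188870 without, most of it from S100a9 (470325 and 427030) and S100a8 (378143 and 355394). Of the 10, 6 were higher with IL-6 and 4 lower, where 43.8% of all measured genes were higher. Csf1r was among the lower ones, with -0.25 ± 0.04 on its brightest probe (-0.20 and 0.26 on the others). Markers of other cells were present too: 8 of 8 for B cells, 8 of 11 for T and NK cells (Cd247, Ncr1 and Klrb1c were not well above background), 9 of 9 for mast cells and basophils, 7 of 8 for dendritic cells, 4 of 7 for stromal cells and 2 of 6 for erythroid cells. Both arrays came from the same slide and the same scan.

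With IL-6, Tnf was higher, Tnfrsf1b, Tnfsf13b and Fas were lower, and the other members differed less or were too dim to place. Of the 10 members, 3 had a log2 ratio above 0 and 7 below it, against 43.8% and 56.2% of all measured genes. A log2 ratio of at least 0.32 was taken as a small difference of note, and 4 members were past it in either direction, where 7.72% of all genes were. Higher by that much was 1 member, Tnf (4.17% of all genes), and lower were 3, Tnfsf13b, Tnfrsf1b and Tnfsf10 (3.55%). Tnfsf10 was barely past the limit, with a technical error nearly as wide as the difference. No member was 2-fold apart, as were 0.383% of all genes. The median log2 ratio of the members was -0.19 against -0.02 for all measured genes. Differences larger than 2 technical errors were found for 6 members and 31.3% of all genes. Of the 6, 1 was higher and 5 lower, where 12.4% of all genes were higher and 18.9% lower by that measure.

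**Figure D1:**
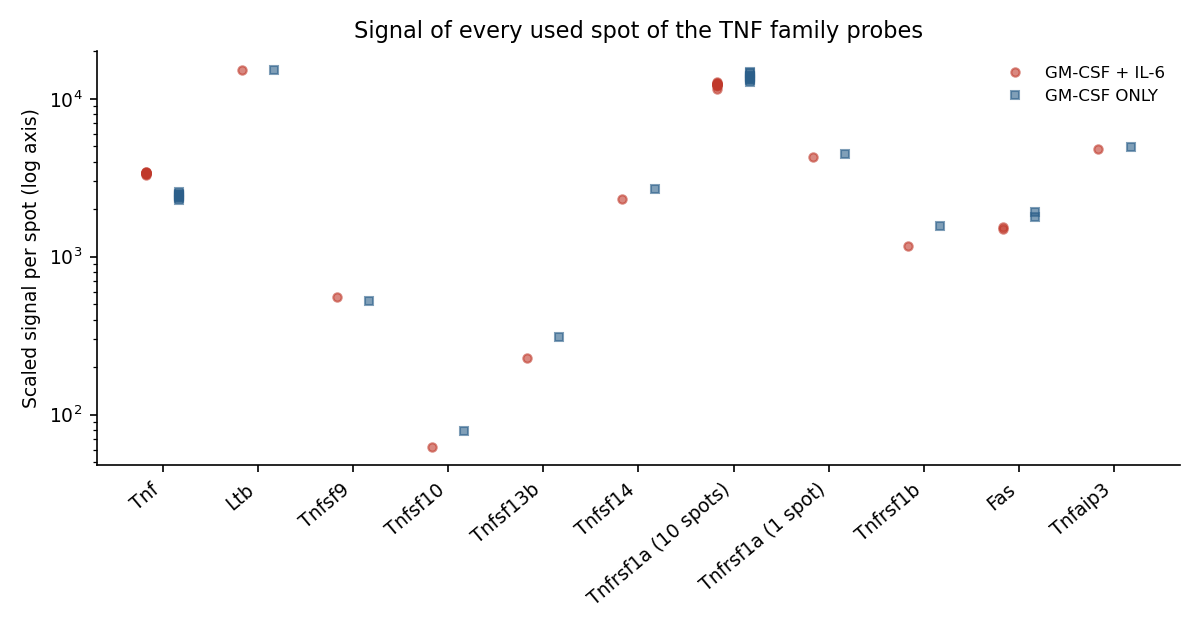
Scaled signal of every used spot of the 11 probes, on a log axis, with circles for GM-CSF + IL-6 and squares for GM-CSF ONLY. Signals of different probes cannot be set against each other. The spots of Tnf lie higher with IL-6, and those of Tnfrsf1b, Tnfsf13b and Fas lie lower.

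Tnf, the founding ligand of the family and a main inflammatory cytokine of macrophages, was 1.39-fold higher with IL-6. Its probe (A_51_P385099) was printed 10 times, and 9 spots were used on each array. With IL-6 the spots ran from 3277 to 3454 with a median of 3379, and in the GM-CSF ONLY culture from 2285 to 2562 with a median of 2426. The spots of the arrays did not overlap, and all 9 gave a higher signal with IL-6. Their log2 ratios ran from 0.42 to 0.56, with a mean of 0.48 ± 0.02 and an SD over spots of 0.04. The spot left out, in the outermost row, was marked as an outlier on both arrays and gave 0.50. The 9 spots were spread over the array, and the measured spots around them had a mean local median log2 ratio of -0.00074. Of the 13843 genes measured, 253 (1.83%) had a log2 ratio as high or higher, and 500 genes of like brightness had an SD of 0.13. Repeated spots share 1 labelled RNA sample and are not replicates of the culture.

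Ltb and Lta flank Tnf on chromosome 17, in the order Ltb, Tnf, Lta. Ltb, which encodes lymphotoxin beta, the membrane anchor of the lymphotoxin heterotrimer, gave 15298 with IL-6 and 15238 without. Its log2 ratio was 0.01 ± 0.04, and 42.2% of genes lay as high or higher. Lta, the soluble partner, was dim at 49.98 with IL-6 and 45.8 without, a log2 ratio of 0.13 ± 0.08. The log2 ratio of Tnf exceeded that of Ltb by 0.47 ± 0.05, so the signals of these neighbouring genes differed unequally between the cultures.

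Tnfsf13b encodes BAFF, the survival factor of B cells, which myeloid cells secrete and which interferons are known to induce. Its only probe gave 228.7 with IL-6 and 308.3 without, which is 1.35-fold lower (log2 ratio -0.43 ± 0.11). Of all measured genes, 1.63% lay as low or lower, and the SD over genes of like brightness was 0.17. The BAFF receptor genes had small log2 ratios in both directions. Tnfrsf13c, the main survival receptor on B cells, had -0.19 ± 0.05 on its brighter probe and 0.34 ± 0.11 on the other, so its sign depends on the probe. Tnfrsf13b, which encodes TACI, had 0.07 ± 0.07, and Tnfrsf17, the plasma cell receptor, was not well above background. The B cell markers summed to 25510 with IL-6 and 26058 without, most of it from Cd79b (17996 and 18482). Of the 8, 6 were lower, where 56.2% of all measured genes were. The part of B cells in these values was not tested.

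Tnfsf10 encodes TRAIL, a ligand that triggers apoptosis and is also known as interferon-induced. It was the dimmest member, the only 1 in the lowest 25% of measured genes by signal, at 62.8 with IL-6 and 78.6 without. The log2 ratio of -0.32 ± 0.25 was little larger than its technical error, and after normexp background correction it was -0.05. Tnfrsf10b, the death receptor for TRAIL in mice, gave 225.5 with IL-6 and 224.0 without (log2 ratio 0.01 ± 0.11).

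Tnfsf14 and Tnfsf9 lie close together on chromosome 17, with Cd70 between them. Tnfsf14, which encodes LIGHT, a ligand of the herpesvirus entry mediator and the lymphotoxin beta receptor, gave 2318 with IL-6 and 2688 without, 1.16-fold lower (log2 ratio -0.21 ± 0.05). Its only spot lies in the outermost column of the array and its background was marked as an outlier on the GM-CSF + IL-6 array, and after normexp background correction the log2 ratio was -0.06. Tnfsf9, the costimulatory ligand 4-1BBL, gave 554.2 with IL-6 and 521.7 without (log2 ratio 0.09 ± 0.07), within 2 technical errors. Cd70, a costimulator of T cells, was dim, with -0.25 ± 0.25. Among the receptors of these ligands, Tnfrsf14 had 0.07 ± 0.11, Ltbr -0.10 ± 0.05 and Tnfrsf9 0.03 ± 0.05, the last with -0.09 on its other probe.

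All 3 receptor genes were lower with IL-6, where 56.2% of all measured genes were. Of the 20 other receptor genes measured, 14 were above 0, where 43.8% of all measured genes were. In bulk RNA, fewer cells of a type and less RNA per cell cannot be told apart, here or for the ligands. Tnfrsf1b encodes TNFR2, the receptor that membrane-bound TNF engages best and that lacks a death domain. Its probe gave 1172 with IL-6 and 1558 without, 1.33-fold lower (log2 ratio -0.41 ± 0.05). Only 255 of 13843 genes (1.84%) lay as low or lower, and 500 genes of like brightness had an SD of 0.13. The spots around it had a local median of 0.02. This rests on 1 spot per array.

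Tnfrsf1a encodes TNFR1, the death domain receptor found on nearly all cells, and it had 2 probes. Probe A_52_P192426, printed 10 times, gave spots from 11613 to 12759 with IL-6 (median 12374) and from 12814 to 14665 without (median 13757). The spots did not overlap and all 10 were lower with IL-6, by a mean log2 ratio of -0.16 ± 0.01 and an SD over spots of 0.06. Of all measured genes, 16.3% lay as low or lower. The other probe, A_55_P2051099, gave 4252 with IL-6 and 4473 without (log2 ratio -0.07 ± 0.05). Tnfrsf1b was further below 0 than Tnfrsf1a, by -0.25 ± 0.05 on the log2 scale. Set against Tnf, whose ratio was above 0, the log2 ratio of Tnfrsf1b differed by 0.89 ± 0.06 and that of Tnfrsf1a by 0.63 ± 0.02.

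**Figure D2:**
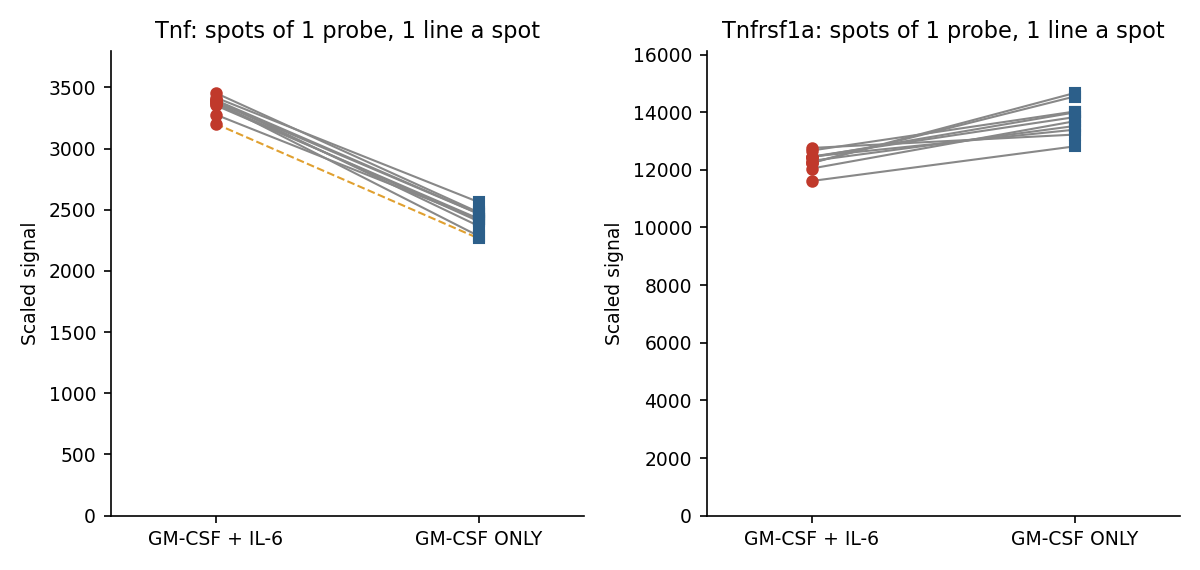
Scaled signal of each spot of the probes printed 10 times, Tnf at left and the brighter Tnfrsf1a probe at right, with 1 line per spot joining GM-CSF + IL-6 (circles) to GM-CSF ONLY (squares). The dashed line is the Tnf spot left out. Every Tnf line is higher and every Tnfrsf1a line lower with IL-6, and the spots share 1 RNA sample per condition.

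Fas, the death receptor that removes activated leukocytes, was 1.22-fold lower. Its probe was printed 2 times and gave 1539 and 1490 with IL-6, against 1796 and 1912 in the GM-CSF ONLY culture. Both spots were lower, with log2 ratios of -0.22 and -0.36 and a mean of -0.29 ± 0.04, and 4.80% of genes lay as low or lower. Its ligand gene Fasl was not well above background on either array.

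Tnfaip3, the NF-kB-induced brake on TNF receptor signalling, barely differed. It gave 4779 with IL-6 and 4919 without, and its log2 ratio of -0.04 ± 0.05 lay near the middle of all genes, 44.5% of which were as low or lower. The log2 ratio of Tnf exceeded it by 0.52 ± 0.06.

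**Figure D3:**
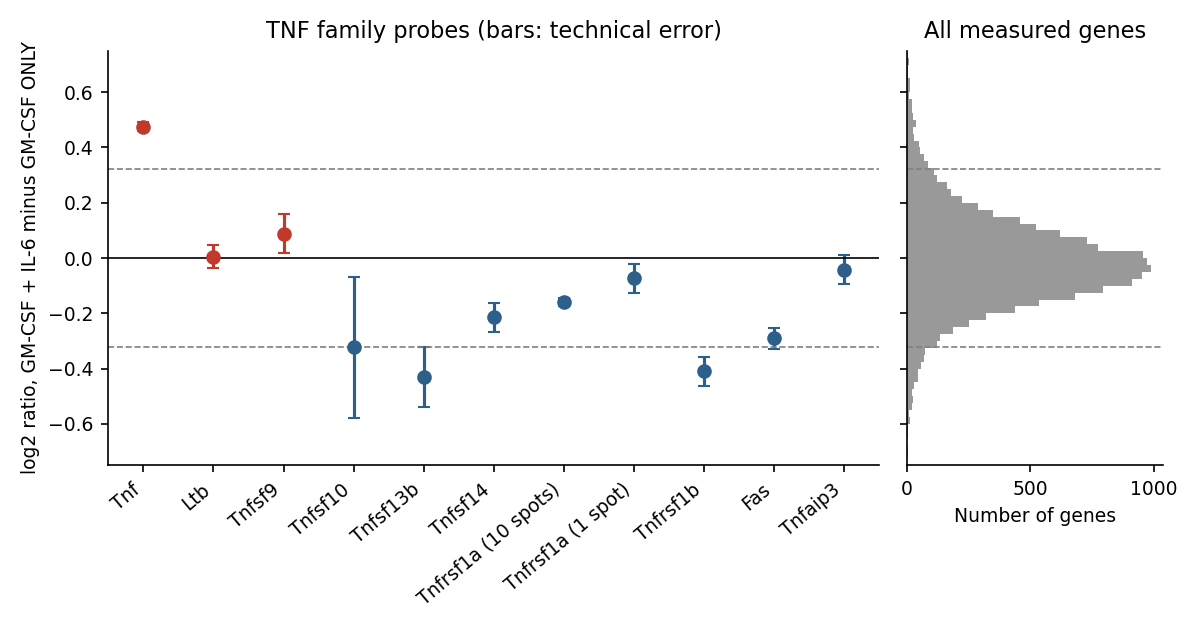
Log2 ratio (GM-CSF + IL-6 minus GM-CSF ONLY) of the 11 probes at left, with technical errors as bars, and its distribution over 13843 measured genes at right, 105 of which lie beyond the axis. Dashed lines mark log2 ratios of 0.32 and -0.32. Tnf, at 0.48, is above the upper line and Tnfrsf1b, at -0.41, below the lower one.

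The machinery around the receptors was slightly lower as a group, and none of its genes was past a log2 ratio of 0.32 in either direction. In the complexes that the receptors recruit, 20 of 26 genes were below 0 and 6 above, with a median log2 ratio of -0.09 and 0 past that limit. With cyclic loess 16 of 26 were below 0, where 53.5% of all measured genes were in that setting. Tradd, the adaptor that links TNFR1 to its signalling complex, had -0.24 ± 0.05 and the adaptor Traf5 -0.21 ± 0.07. Their order is not firm, since with the local median subtracted, an alternative chosen after seeing the data, Tradd had -0.15 and Traf5 -0.22. Rbck1, a subunit of the linear ubiquitin ligase, had 0.14 ± 0.05 and Traf4 0.10 ± 0.02. The A20 partners and deubiquitinases were below 0 in 11 of 11 genes, or 9 of 11 with normexp, with a median of -0.10. They ran from Tank, a regulator of TRAF signalling, at -0.23 ± 0.07 (-0.22 on its other probe, and -0.12 with normexp) and the linear-chain deubiquitinase gene Otulin at -0.16 ± 0.05 to the deubiquitinase gene Cyld at -0.02 ± 0.07 and the A20 adaptor gene Tax1bp1 at -0.02 ± 0.04. Of all measured genes, 56.2% were below 0, or 50.5% with normexp.

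Genes that release TNF protein or control its mRNA mostly had log2 ratios below 0, as did 56.2% of all measured genes (50.5% with normexp). All 5 measured shedding genes were below 0 (3 of 5 with normexp), with a median of -0.14. The lowest were the intramembrane protease gene Sppl2a at -0.16 ± 0.05 and the sheddase gene Adam10 at -0.15 ± 0.05. Nearest to 0 were Sppl2b, a protease gene related to Sppl2a, at -0.05 ± 0.05 and Rhbdf2 at -0.02 ± 0.05. Rhbdf2 carries the TNF sheddase to the surface. Adam17, that sheddase, gave 176.7 with IL-6 and 195.1 without (-0.14 ± 0.11). Its other probe had the opposite sign, with 121.8 with IL-6 and 112.5 without (0.12 ± 0.11), so its direction depends on the probe. The median over probes was -0.01 for Adam17 and -0.05 for the shedding list. Of 8 genes that control TNF mRNA, 7 were below 0. The gene above 0 was Zfp36, which encodes tristetraprolin, a protein that binds AU-rich elements of Tnf mRNA and promotes its decay. It gave 2199 with IL-6 and 1622 without, 1.36-fold higher (log2 ratio 0.44 ± 0.05 on its only probe). In this main setting that is close to the ratio of Tnf itself. Zfp36 had 0.55 with normexp and 0.61 with the local median subtracted, where Tnf had 0.45 and 0.47. The RNase gene Zc3h12a had -0.23 ± 0.07, the Roquin gene Rc3h1 -0.14 ± 0.05, and the stabilising factor gene Elavl1 -0.01 ± 0.04.

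Of 21 measured targets of TNF and NF-kB, 16 were below 0 and 5 above, with a median of -0.10, where 56.2% of all measured genes were below 0. Lower by at least 0.32 were 2 (3.55% of all genes were), the adhesion receptor gene Vcam1 at 1512 with IL-6 and 1945 without (-0.36 ± 0.05, or -0.24 as the median of its probes), and the dim Tnfaip6 at -0.40 ± 0.25, which was -0.12 with normexp. The highest were Nfkbiz, a nuclear NF-kB cofactor, at 0.10 ± 0.07 and the chemokine gene Ccl2 at 0.07 ± 0.02.

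The remaining ligands and receptors of the family lay on both sides of 0. Of those measured, 1 of 7 ligand genes and 16 of 20 receptor genes were above the lowest 25% of measured genes by signal. Of 12 other ligand genes, 7 were measured, 4 above 0 and 3 below, where 43.8% of all measured genes were above 0. Tnfsf11, Tnfsf18, Cd40lg and Fasl were not well above background. The dim CD30 ligand gene Tnfsf8 had 0.319 ± 0.11, just short of the limit used above. The dim ectodermal ligand gene Eda had 0.30 ± 0.25, while the dim Tnfsf15 had -0.50 ± 0.25, or -0.13 with normexp. Tnfsf13 was not analysed here. Of 25 other receptor genes, 20 were measured, 14 above 0 and 6 below, with a median of 0.06, where 43.8% of all measured genes were above 0. The dim Tnfrsf19, known from stem and epithelial cells, was 198.6 with IL-6 and 118.0 without (0.75 ± 0.11, or 0.56 with normexp). Its other probe was not well above background. The mouse decoy TRAIL receptor genes had opposite signs, Tnfrsf22 with 0.319 ± 0.11, also just short of the limit, and Tnfrsf23 with -0.27 ± 0.05.

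**Figure D4:**
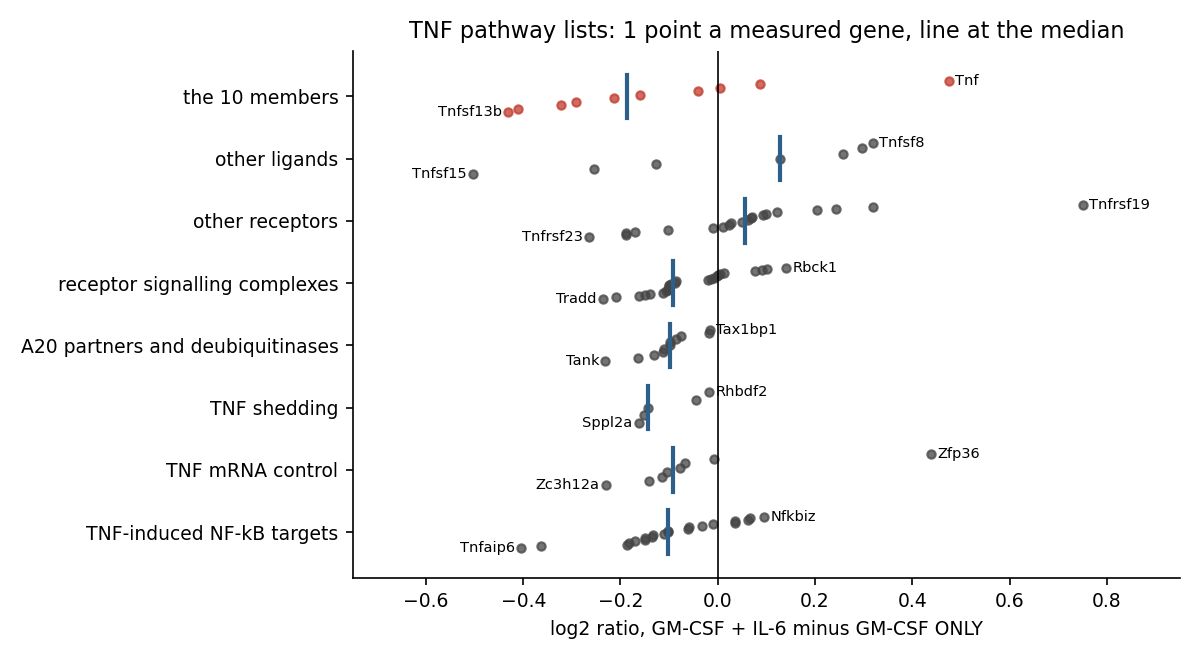
Log2 ratios (GM-CSF + IL-6 minus GM-CSF ONLY) of measured genes of the TNF pathway, 1 point per gene and 1 row per list, with the lowest and highest gene named and a line at each median. Zfp36, at 0.44, stands apart from the other genes of its list, and the 5 lists of signalling, shedding, mRNA control and targets have medians below 0. The lists of other ligands (0.13) and other receptors (0.06) have medians above 0, with the dim Tnfrsf19 highest at 0.75.

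Marker lists of other cells differed in both directions beside these values. Mast cell and basophil genes were higher with IL-6 in 8 of 9, where 43.8% of all measured genes were above 0. Their median log2 ratio was 0.20 and their summed signals 56509 with IL-6 and 52677 without, and mast cells are a known source of TNF. The brightest gene of this list was Mcpt8 (24659 with IL-6 and 21473 without). The gene below 0 was the bright Hdc, at 10010 with IL-6 and 11605 without (-0.21 ± 0.04). Dendritic cell genes were lower in 7 of 7 measured, with a median of -0.12, where 56.2% of all measured genes were below 0. Of these genes, Ccr7, at -0.27 ± 0.04, was the one beyond 2 technical errors, and Zbtb46, Clec9a and Cd209a were dim. Their sums were 149130 with IL-6 and 158684 without, most of it from the brighter probe of Siglech (114307 and 118464). The other Siglech probe was far dimmer and of opposite sign, at 194.4 with IL-6 and 190.3 without (0.03 ± 0.11). Xcr1 was not well above background. For T and NK cell genes the median was -0.10, with 6 of 8 measured lower, where 56.2% of all measured genes were. Their sums were 11268 with IL-6 and 10736 without, most of it from Nkg7 (7766 and 7049), which was higher. The few measured stromal and erythroid genes had low signals and the highest medians of the marker lists. The marker genes named here were chosen after their values were seen. The stromal list had 2 genes higher and 2 lower, where 43.8% of all measured genes were higher. Its median was 0.26 and its sums 305.6 with IL-6 and 228.7 without. Its matrix gene Sparc gave 100.4 with IL-6 and 35.98 without (1.48 ± 0.25), and the other Sparc probe was not well above background. The collagen gene Col1a2 had 0.53 ± 0.25, while Col3a1, Lum and Cdh5 were not well above background. Of the erythroid list, the globin gene Hba-a1 had 0.69 ± 0.11 and Epor -0.01 ± 0.11, a median of 0.34 with sums of 335.4 with IL-6 and 278.5 without, and Klf1 and Alas2 were not well above background. The part of any of these cells in the differences of Tnf, its receptors and Tnfsf13b was not tested.

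**Figure D5:**
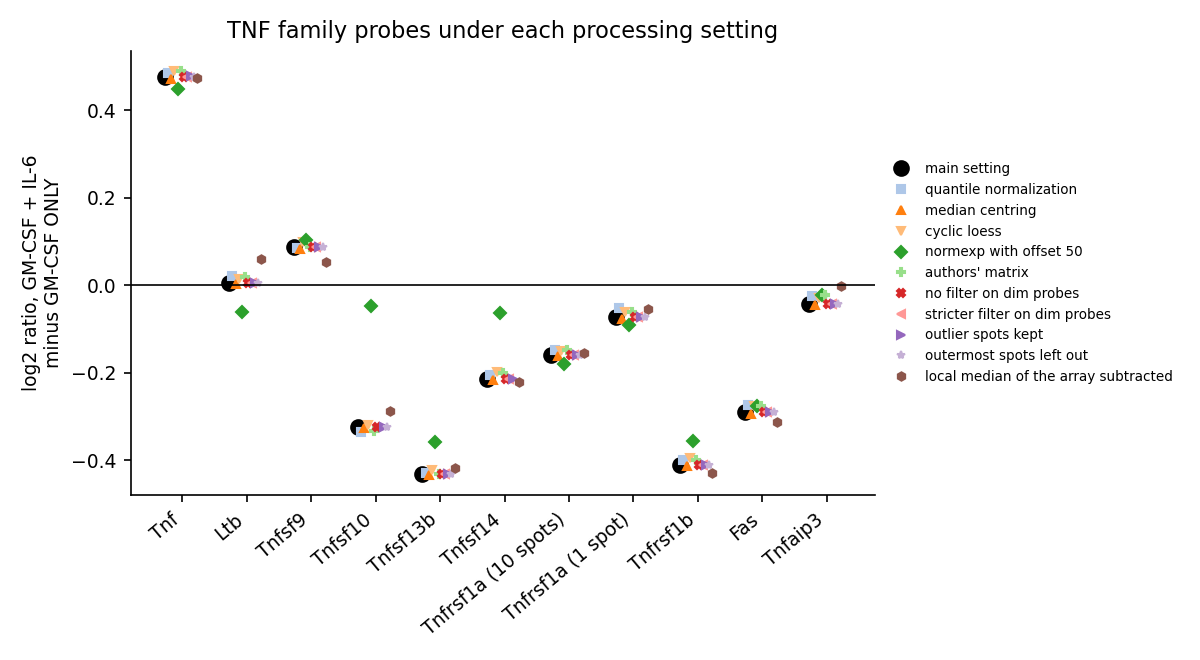
Log2 ratio (GM-CSF + IL-6 minus GM-CSF ONLY) of each of the 11 probes under the main setting (black circles) and each alternative. Tnf stays between 0.45 and 0.49 and Tnfrsf1b between -0.43 and -0.36, while Tnfsf10 and Tnfsf14 move towards 0 with normexp.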

How the data were processed

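Per the file headers, the authors extracted spot intensities with Agilent Feature Extraction (version 10.7.1.1) as 1-colour (Cy3) signals that were background-subtracted and detrended on each array. The deposited series matrix holds log2 values of the authors. Its columns have medians of 5.12 and 5.12 over non-control probes and nearly equal quantiles, and each correlates with its array's own log2 intensities at r = 0.99998, so its log2 values are quantile-normalized without centring of genes. What software did this is not given in the sources used. The number of arrays, 1 per condition, limits the precision.

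Each array's processed intensities, control spots left out, were divided by their 75th percentile and put on the log2 scale. Signals are scaled to a 75th percentile of 517.0. Spots marked as outliers were dropped, and repeated spots averaged. A probe was measured when at least 50% of its spots were well above background on both arrays, and a gene took its brightest measured probe. Technical errors come from probes with at least 5 usable spots, in 6 bins of brightness. Probes were named by unversioned RefSeq accession through a RefSeq table (GRCm38.p6), and promoters come from RefSeq on the same assembly. The motifs were the NF-kB consensus, GAS, the interferon response core and AP-1.

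The members and lists were chosen with earlier results of these data known. Named genes are all members, the 2 highest and 2 lowest of each pathway list, and partners of members. The alternatives were normexp (offset 50), cyclic loess, median centring, quantile normalization, the authors' matrix, dim probes kept or filtered more strictly, outlier spots included, the median of a gene's probes, the outermost 2 rows and columns left out and, chosen after seeing the data, subtraction of the median log2 ratio within 8 rows and 8 columns. The steps were tested on simulated data. Tools were R 4.3.3 with limma 3.58.1 and Python 3.11.15 with pandas 2.3.3, numpy 2.4.6 and matplotlib 3.10.9.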

Additional observations from a re-analysis of the deposited data

How the results depend on the processing

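Over the main setting and 11 alternatives, Tnf was the 1 member higher by a log2 ratio of at least 0.32. Lower by as much were 2 or 3 members, and 0 were 2-fold apart. Of all genes in each setting, 1.24% to 8.76% were higher and 0.903% to 7.68% lower by as much. From 0.00963% to 4.22% were 2-fold apart. From 2 to 3 members were above 0 and from 6 to 8 below, where 46.5% to 58.6% of all genes were below 0. There were 9 members measured after the stricter filter, which drops Tnfsf10, and with the outermost spots left out, which drops Tnfsf14. The median log2 ratio of the members was -0.0626 with normexp, against -0.19. Ltb, near 0, was -0.0610 with normexp. Among 108 log2 ratios of member probes recomputed, 101 moved by less than the technical error and 7 by more, 6 of these with normexp. For 35 named genes of the pathway lists, 352 of 378 recomputed log2 ratios moved by less than the technical error, 16 of the others were from normexp, and Tnfrsf13c, whose probes differ in sign, changed to 0.0737 with the median over probes. With normexp, Tnfsf10 had -0.05 against -0.32 in the main setting and Tnfsf14 -0.06 against -0.21, and the cause was not tested. The shedding list had 3 of 5 genes below 0 with normexp, where 50.5% of all measured genes were. Its median with normexp was -0.05, against -0.14, and the median over probes also gave -0.05. No paired analysis was possible because 1 array per condition leaves no pairs.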
